A study of Mus musculus with 16 samples.

Results

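Dorsal root ganglia (DRGs) of mice with a nerve injury and desipramine (DMI) treatment were compared with those of mice that had neither, to ask what of the injured state was present after treatment and what the treatment came with. The comparison used 8 of the 16 libraries of the study, the 4 of SNI-DMI and the 4 of Sham-Saline, chosen by their group labels, and all 52636 Ensembl genes of the count files, of which 21371 passed a filter on low counts and were tested. SNI-DMI mice had a tibial-sparing spared nerve injury (SNI) of the left hindlimb, in which the common peroneal and sural branches of the sciatic nerve are cut, and received DMI at 15 mg/kg by intraperitoneal injection 2 times a day for 3 weeks. Sham-Saline mice had sham surgery and injections of saline alone on that schedule. The other groups, used here only for reference, were SNI-Saline and Sham-DMI, also with 4 libraries each. All mice were male C57BL/6J of 3 to 4 months, and each library held the ganglia L3 to L6 of 1 mouse, so that cut and spared neurons were sequenced together. The side of the ganglia is not given in the sources used here. Treatment began 4 weeks after surgery by the series' design and by the study's results, while a sentence of its methods gives a longer wait.

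Because the groups differ in both surgery and drug, a difference between them can come from either, and the other groups are given beside it for that reason. The library numbers run from 21 to 24 in SNI-DMI and from 37 to 40 in Sham-Saline, so library order and group cannot be told apart. Reads on genes ran from 57330482 to 65446093 in SNI-DMI and from 59076749 to 70125807 in Sham-Saline. The labels name both spinal cord and dorsal root ganglia, and the summed levels in CPM (counts scaled by library size) of the DRG neuron markers were 7216 to 8840 over the 16 libraries against 231 to 302 for the markers of spinal cord and brain. SNI-DMI replicate 2 stood apart in skeletal muscle genes, with a summed level of 399 CPM against 85.8 to 97.1 CPM in the other SNI-DMI libraries and 58.4 to 136 CPM in Sham-Saline. Pvalb is a member of this list and of the list of large-diameter neurons, so these sums are not of muscle alone. In Sham-DMI, replicates 2 and 4 had raised levels of several injury genes, among them Sprr1a at 12.2 and 9.19 CPM against 1.81 and 1.67 CPM in replicates 1 and 3.

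When the peripheral axon of a sensory neuron is cut, the neuron leaves its resting program, switches on the transcription factor ATF3 and growth-associated genes, and makes neuropeptides it normally makes little of. At the same time it lowers many ion channels and receptors of the uninjured state, while macrophages in the ganglion increase and take on phagocytic markers. DMI is a tricyclic antidepressant that blocks the noradrenaline transporter and is used against neuropathic pain.

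SNI-DMI and Sham-Saline differed widely. By the study's thresholds, which are a nominal p under 0.05 with a log2 fold change (log2FC) of 0.32 or more in size, 4097 genes were differentially expressed (DEGs), 19.2% of those tested, with 1806 (8.45%) higher and 2291 (10.7%) lower in SNI-DMI. With the p-value of edgeR's quasi-likelihood test adjusted by Benjamini-Hochberg and set under 0.1, at the same limit on the fold, 3818 genes were called (17.9%), of which 1677 (7.85%) were higher and 2141 (10%) lower. The CPM values of both groups did not overlap for 3063 (80.2%) of these, against 30.5% of all genes tested (15.3% higher, 15.2% lower). Most changes were small, since 173 of the called genes had a log2FC of at least 1 and 226 of at most -1, and the median absolute log2FC of the 7655 genes (35.8%) with an adjusted p under 0.1 was 0.32. For reference, the same adjusted call gave 869 genes (4.07%) for SNI-Saline against Sham-Saline, 1950 (9.12%) for Sham-DMI against Sham-Saline and 229 (1.07%) for SNI-DMI against SNI-Saline. No gene had an interaction between injury and drug at an adjusted p under 0.1 by edgeR's quasi-likelihood test, while 1692 had one at a nominal p under 0.05.

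**Figure D1:**
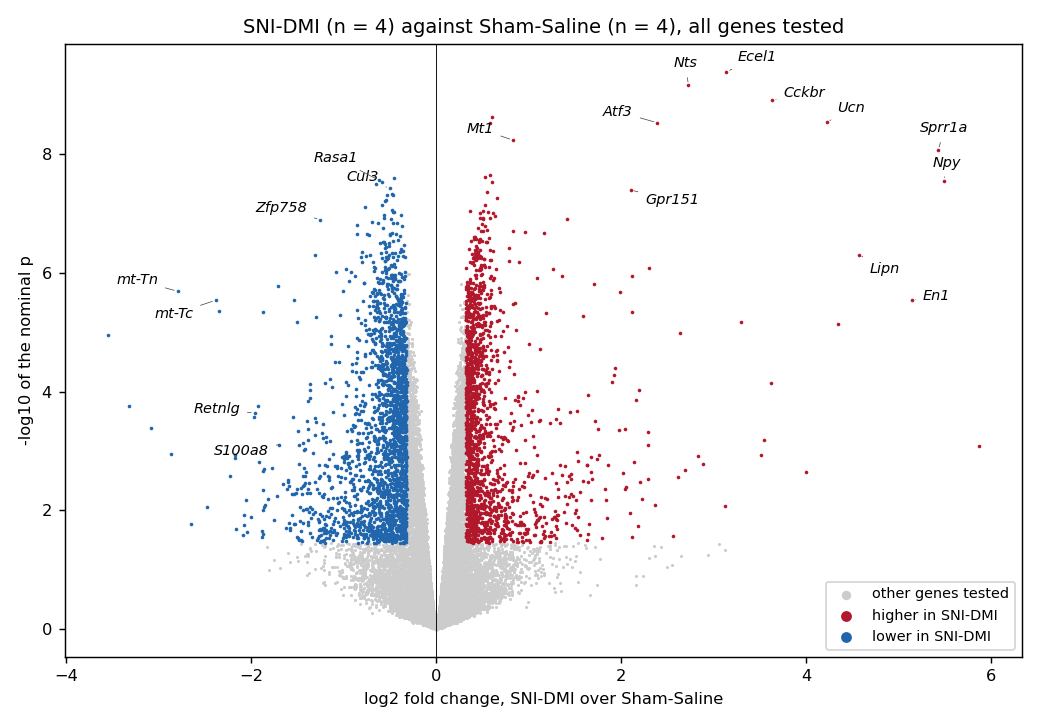
Log2FC of SNI-DMI over Sham-Saline (x axis) against −log10 of the nominal p (y axis) for the 21371 genes tested, with 1 point per gene. The injury genes lie far to the right, with log2FC up to 5.49 for Npy, while most of the 3818 called genes lie within 1 log2 unit of 0 on either side.

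The size of the small changes moved with gene length and GC content. Genes called higher had a median exon length of 1620 bases and a GC content of 53.7%, genes called lower had 5542 bases and 42.6%, and all genes tested had 3405 bases and 49.4%. In the shortest decile of protein-coding genes the median log2FC was 0.27, and in the longest it was -0.23. With smooth trends over length and GC content removed, 2415 DEGs and 1917 adjusted calls were left, and 53.3% of the calls were higher in place of 43.9%. What part length and GC content had in single changes was not tested. The value with the trends removed is given below for part of the genes where it ends a call or turns a direction.

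**Figure D2:**
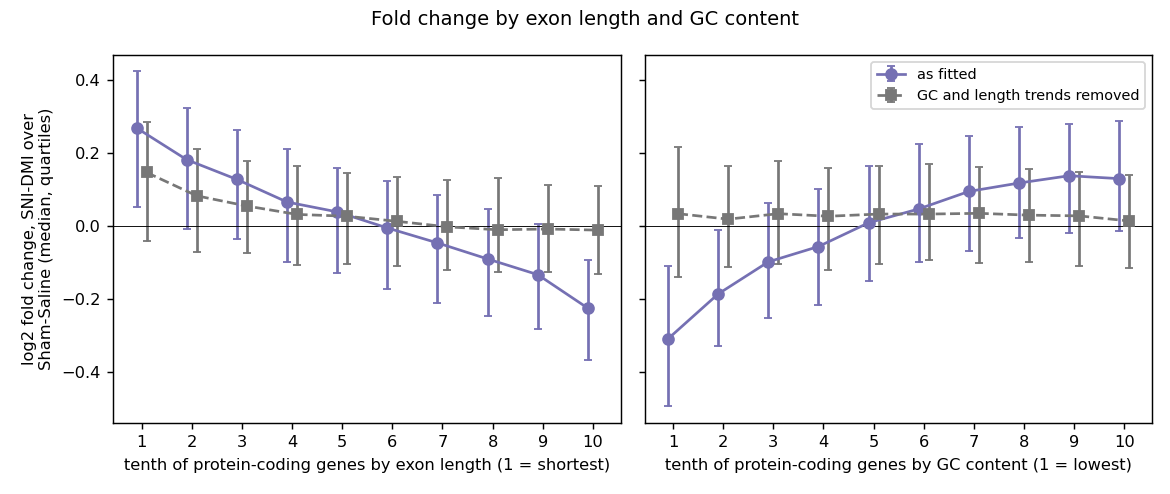
Median log2FC of SNI-DMI over Sham-Saline, with quartiles as bars, in deciles of protein-coding genes by exon length (left) and by GC content (right). As fitted, the medians fall from 0.27 in the shortest decile to -0.23 in the longest and rise from -0.31 in the lowest GC decile. With the trends removed they lie near 0, except for 0.15 in the shortest decile.

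The axon injury program was present in SNI-DMI. Atf3, the transcription factor that marks axotomized neurons, was at 12.1, 11.9, 10.6 and 7.44 CPM in the Sham-Saline libraries and at 59.5, 45.3, 36.9 and 78.9 CPM in the SNI-DMI libraries. Every SNI-DMI library lay above every Sham-Saline library, and the difference was 5.24-fold (log2FC 2.39, SE 0.22, adjusted p = 8.94e-06 by edgeR's quasi-likelihood test). Sprr1a, a small proline-rich protein of regenerating axons, was at 0.939, 2.06, 0.982 and 0.619 CPM in Sham-Saline and at 59.3, 37.6, 30.1 and 73.9 CPM in SNI-DMI. These groups were separated by over an order of magnitude, with a 43.0-fold difference (log2FC 5.43, SE 0.54). Ecel1, an endopeptidase of the injured neuron, was at 1.79, 1.82, 2.46 and 1.43 CPM in Sham-Saline and at 18.3, 12.5, 11.1 and 24.1 CPM in SNI-DMI, an 8.8-fold rise without overlap.

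Several neuropeptides and the receptors Cckbr and Gpr151 rose with them. Npy, neuropeptide Y, which is nearly silent in intact sensory neurons, was at 0.157, 1.55, 0.249 and 0.106 CPM in Sham-Saline and at 26.9, 19.4, 17.6 and 33 CPM in SNI-DMI. Even the Sham-Saline library with the highest value lay far below the SNI-DMI libraries, and the rise was 44.9-fold (log2FC 5.49, SE 0.59). Without that library, Sham-Saline replicate 2, the log2FC of Npy was 7.14. Nts, which encodes neurotensin, went from 12.1, 10.8, 8.62 and 9.87 CPM to 74.6, 55.5, 52 and 91.5 CPM, a log2FC of 2.73. Cckbr, a receptor for cholecystokinin, was near 0.6 CPM in all 4 Sham-Saline libraries (0.643, 0.607, 0.623 and 0.604 CPM) and was at 7.88, 5.88, 6 and 11.1 CPM in SNI-DMI, a log2FC of 3.63. Ucn, the stress peptide urocortin, had 23 reads in all over the 4 Sham-Saline libraries and 426 over the 4 SNI-DMI libraries, and Gpr151, an orphan receptor of injured neurons, rose by a log2FC of 2.10. Gal, which encodes galanin, was at 14.6, 24.2, 23.6 and 30.7 CPM and at 50.5, 44.5, 50.8 and 57.9 CPM, so that the groups did not overlap (log2FC 1.13, adjusted p = 0.000473 by edgeR's quasi-likelihood test).

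Within SNI mice the drug did not detectably move these genes. For Atf3, Sprr1a, Npy, Nts, Ecel1, Cckbr, Ucn and Gpr151, the log2FC of SNI-DMI over SNI-Saline ran from -0.08 to 0.20, and the smallest adjusted p was 0.738 by edgeR's quasi-likelihood test. These 8 were taken from genes with large rises in SNI-DMI over Sham-Saline, which uses the same SNI-DMI libraries. That choice tends to leave out injury genes that the drug lowered, so the values describe these 8 genes only. The 95% intervals of these 8 differences reached from -0.78 to 0.99, so a change of up to about that size in either direction was not detectable. Set beside each other, the log2FC over the shared Sham-Saline libraries was 2.39 in SNI-DMI and 2.32 in SNI-Saline for Atf3, 5.43 and 5.23 for Sprr1a, 5.49 and 5.41 for Npy, and 2.73 and 2.78 for Nts. Galanin stood at 1.13 in SNI-DMI and 0.48 in SNI-Saline, and the difference of 0.64 between the injured groups missed the threshold (adjusted p = 0.11 by edgeR's quasi-likelihood test).

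**Figure D3:**
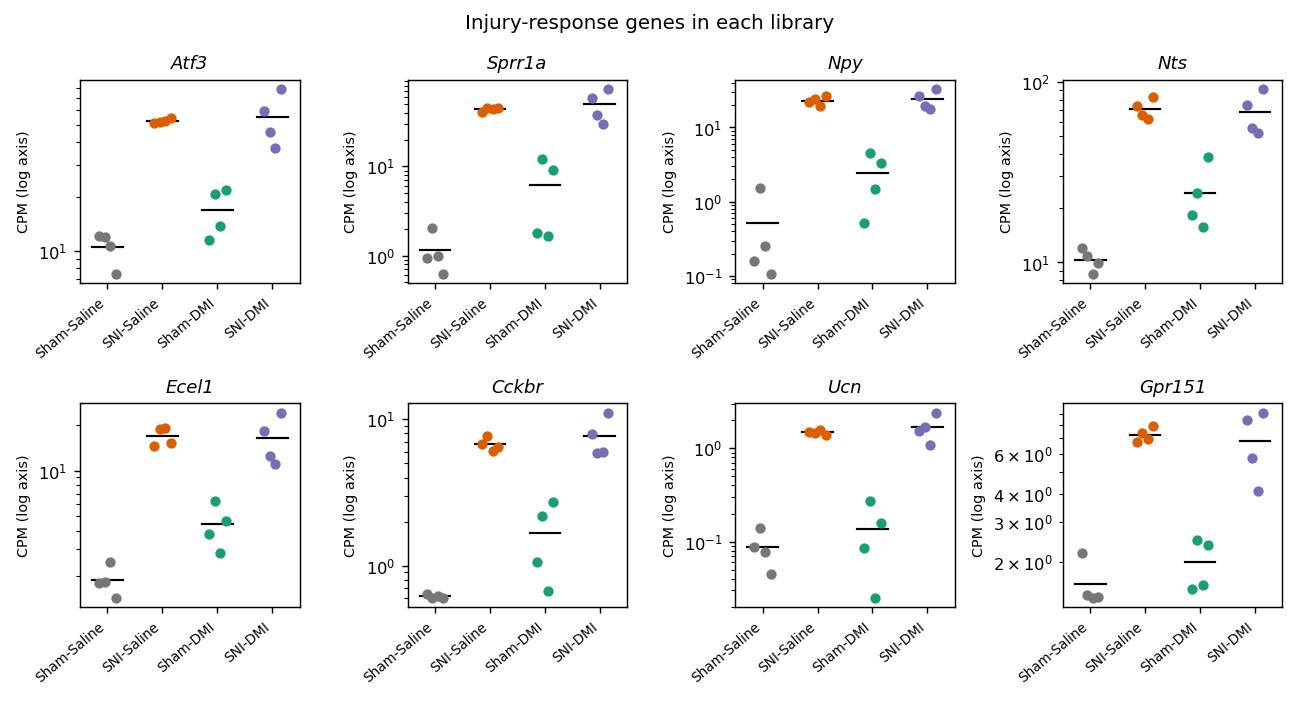
CPM on a log axis of 8 injury genes in the 16 libraries by group, with 1 point per mouse and a line at the group mean. Both SNI groups sit together above Sham-Saline for every gene shown, and for Sprr1a the Sham-DMI replicates 2 and 4 lie between, at 12.2 and 9.19 CPM.

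The promoter letters of some of these genes are shown because AP-1 factors, to which ATF3 and JUN belong, bind the letters TGANTCA, and CREB and ATF factors bind TGACGTCA. Both motifs were searched on both strands in the 250 bases before the start in RefSeq promoters of GRCm38.p6. The letters of the second do not contain those of the first. Of the 10 genes that rose with the smallest adjusted p, Nts and Sprr1a held the AP-1 letters (2 of 10), as did Mctp1 among the falling genes (1 of 8 with a promoter in the table). All 27025 genes of the table held them in 7.82% of cases, the 13452 tested genes with a promoter in 5.92%, the genes called higher in 8.24% and those called lower in 4.72%. The CREB letters stood in 2.71% of tested genes with a promoter and in none of the 10 risen genes. They also stood in Ucn, whose promoter was added after its values were seen. A second set held 8 genes higher in SNI-DMI that went the opposite way in SNI-Saline over Sham-DMI, described below. In it, Lin37 and Sgta held the AP-1 letters (2 of 8), and Mif and Sgta the CREB letters (2 of 8). None of the 6 matching lower genes with a promoter held either. The matches end 200 bases before the start in Nts (chr10:102490419-102490668, minus strand), 139 and 109 bases before it in Sprr1a (chr3:92485882-92486131, minus strand), 59 before it in Mctp1 (chr13:76579347-76579596, plus strand) and 36 before it in Ucn (chr5:31138896-31139145, minus strand). Each sequence runs 5′ to 3′ along the gene's strand, with the matches in capitals:
Nts: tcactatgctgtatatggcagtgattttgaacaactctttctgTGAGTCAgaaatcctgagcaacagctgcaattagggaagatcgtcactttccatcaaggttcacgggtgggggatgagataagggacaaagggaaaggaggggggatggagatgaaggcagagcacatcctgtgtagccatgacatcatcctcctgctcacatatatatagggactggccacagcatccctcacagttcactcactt
Sprr1a: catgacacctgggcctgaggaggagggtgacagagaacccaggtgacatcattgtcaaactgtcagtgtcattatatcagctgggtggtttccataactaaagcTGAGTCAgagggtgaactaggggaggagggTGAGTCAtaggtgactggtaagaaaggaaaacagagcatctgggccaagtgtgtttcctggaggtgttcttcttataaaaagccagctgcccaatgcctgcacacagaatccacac
Mctp1: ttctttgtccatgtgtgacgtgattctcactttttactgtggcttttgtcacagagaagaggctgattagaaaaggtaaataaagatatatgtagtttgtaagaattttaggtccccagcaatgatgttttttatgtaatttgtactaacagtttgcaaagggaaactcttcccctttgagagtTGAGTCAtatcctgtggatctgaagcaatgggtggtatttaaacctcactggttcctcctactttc
Ucn: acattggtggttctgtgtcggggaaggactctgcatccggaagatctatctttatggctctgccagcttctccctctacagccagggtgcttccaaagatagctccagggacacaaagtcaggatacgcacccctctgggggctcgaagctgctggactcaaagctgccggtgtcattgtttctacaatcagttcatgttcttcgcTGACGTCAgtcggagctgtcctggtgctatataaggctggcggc

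A match is a description of the letters and says nothing about binding in these ganglia. Sprr1a and Nts rose and Mctp1 fell with the same letters before their start, and Atf3, Ecel1 and Cckbr rose without them in this window.

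Wider lists of injury genes rose in part. For lists, a gene is counted as risen or fallen at an adjusted p under 0.1 by edgeR's quasi-likelihood test without a limit on the fold, which all tested genes reached in 17.3% of cases upwards and 18.5% downwards. Of 18 injury receptors and growth effectors, 12 rose and 3 fell, with a median log2FC of 0.44 against -0.001 over all genes. Gap43, a protein of the growth cone, rose from between 231 and 254 CPM in Sham-Saline to between 306 and 360 CPM in SNI-DMI (log2FC 0.51). Of 14 regeneration-associated transcription factors 8 rose and 2 fell (median 0.19), including Sox11, a developmental factor reused in regeneration, at a log2FC of 0.45, while Klf7, another factor of axon growth, fell by 0.50. Among 7 tested injury neuropeptides 5 rose and none fell (median 1.29, beside 1.70 in SNI-Saline and 0.72 in Sham-DMI over the same Sham-Saline libraries). Cacna2d1, the calcium channel subunit to which gabapentin binds, fell by 0.45, a call that was lost with the length and GC trends removed (log2FC -0.08).

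Channels and receptors of the intact sensory neuron were lower. Of 44 potassium channel genes 21 fell and 2 rose (median -0.22), of 31 sodium and calcium channel genes 15 fell and 1 rose (median -0.25), and of 42 transmitter receptor genes 21 fell and none rose (median -0.27). The same medians with the length and GC trends removed were -0.16, -0.16 and -0.09. Over the same Sham-Saline libraries, the medians were -0.17, -0.22 and -0.15 in SNI-Saline and -0.11, -0.14 and -0.22 in Sham-DMI. Scn9a, the sodium channel Nav1.7 of pain-sensing neurons, was at 658, 527, 592 and 608 CPM in Sham-Saline and at 376, 368, 426 and 371 CPM in SNI-DMI. The groups were clearly apart, with a log2FC of -0.63 for Scn9a (SE 0.10, adjusted p = 0.000237 by edgeR's quasi-likelihood test), or -0.31 with the trends removed. Kcng3, a modulatory potassium channel subunit, was at 7.83, 5.86, 8.99 and 8.74 CPM against 3.14, 4.78, 3.93 and 2.28 CPM, a fall of over 1 log2 unit (log2FC -1.15). Kcnn3, a small-conductance calcium-activated potassium channel, had a log2FC of -0.79, Cacnb4, a calcium channel beta subunit, -0.65, Gabrb2, a subunit of the GABA-A receptor, -0.83, and Htr4, a serotonin receptor, -0.77. The 1 member of the potassium list named as rising was Kcnn4, the intermediate-conductance channel also found in immune cells (log2FC 0.54).

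Markers of nociceptors fell in 13 of 24 cases and rose in 2 (median -0.25), and those of large-diameter neurons fell in 5 of 16 and rose in 2. The nociceptor median over the same Sham-Saline libraries was -0.22 in SNI-Saline and -0.11 in Sham-DMI. Oprm1, the mu opioid receptor, was at 25, 19.6, 23.5 and 20.4 CPM in Sham-Saline and at 16.5, 9.42, 13.7 and 10.4 CPM in SNI-DMI. No SNI-DMI library reached the lowest Sham-Saline value, and the log2FC was -0.83 (SE 0.23, adjusted p = 0.0118 by edgeR's quasi-likelihood test). Tac1, the precursor of substance P, went the other way, with 192, 268, 252 and 291 CPM against 324, 326, 331 and 332 CPM (log2FC 0.39). Ntrk3, the receptor of proprioceptors and mechanoreceptors for neurotrophin-3, fell by 0.76. In bulk ganglia, fewer cells of a type and less RNA per cell cannot be told apart.

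Genes of monoamine signalling, to which the target of DMI belongs, were mixed, with 4 of 20 higher and 3 lower. Slc6a2, the noradrenaline transporter that DMI blocks, was barely present, with 64 reads over the 4 Sham-Saline libraries and 40 over the 4 SNI-DMI libraries, and its groups overlapped (log2FC -0.64, adjusted p = 0.424 by edgeR's quasi-likelihood test). Slc6a4, the serotonin transporter, was at 0.243, 0.282, 0.125 and 0.242 CPM in Sham-Saline and at 1.15, 0.597, 0.511 and 1.85 CPM in SNI-DMI. That is a low level in both, without overlap, and a log2FC of 2.19, beside 2.35 in SNI-Saline over the same Sham-Saline libraries. Slc18a2, the vesicular monoamine transporter, fell by 0.71.

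Part of the genes of macrophages and of interferon signalling were higher. Of 24 macrophage markers 12 rose and 3 fell (median log2FC 0.47). Without overlap 4 were higher and 2 lower, against 15.3% and 15.2% of all genes tested. Their summed level was 2010 to 2450 CPM in SNI-DMI against 1540 to 1700 CPM in Sham-Saline. Apoe is a member of this list and of the satellite glia list, so it counts in both sums. Trem2, a phagocytic receptor, was at 1.22, 1.92, 1.37 and 1.4 CPM in Sham-Saline and at 3.83, 3.28, 2 and 3.77 CPM in SNI-DMI (log2FC 1.12, SE 0.25). The groups did not overlap, although SNI-DMI replicate 3 came close to Sham-Saline. Lgals3, galectin-3, had a log2FC of 0.85 and Gpnmb, a glycoprotein of lipid-laden macrophages, 0.84, whereas Cd163, a scavenger receptor of resident macrophages, fell by 0.62. Of 31 interferon-stimulated genes 11 rose and 1 fell (median 0.47), but only 3 were higher without overlap, and the summed level of 660 to 1110 CPM in SNI-DMI overlapped that of 647 to 801 CPM in Sham-Saline. SNI-DMI replicates 1 and 4 carried much of this, as the median was 0.25 without replicate 1 and 0.28 without replicate 4. Of 17 genes of antigen presentation 6 rose and none fell, with overlapping sums of 991 to 1670 CPM and 977 to 1120 CPM and a median of 0.36, which was 0.21 without SNI-DMI replicate 1. Bst2, an antiviral membrane protein, was at 15.3, 12.2, 13.2 and 12.2 CPM against 32.4, 16.5, 21.3 and 39 CPM, with SNI-DMI replicates 1 and 4 far above the others (log2FC 1.04). Isg15, a ubiquitin-like protein induced by interferon, had the same pair of libraries on top, and its call was lost without SNI-DMI replicate 4 (log2FC 0.81, and 0.49 without it, adjusted p = 0.126 by edgeR's quasi-likelihood test). Of 22 cytokines and chemokines 8 rose and none fell, 2 of the 22 were higher without overlap, and the median of 0.39 was 0.24 without SNI-DMI replicate 1. The summed level of all 30 listed was 133 to 197 CPM in SNI-DMI and 122 to 139 CPM in Sham-Saline. Over the same Sham-Saline libraries, the macrophage median was 0.54 in SNI-Saline and -0.08 in Sham-DMI, and the interferon median was 0.42 and -0.39. In the same order, the median was 0.51 and -0.27 for antigen presentation, and 0.51 and -0.24 for cytokines and chemokines.

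Genes of neutrophils and B cells were lower. Of 14 neutrophil markers 10 fell and none rose, with a median log2FC of -1.30. Without overlap 3 of the 14 were lower, against 15.2% of all genes tested. S100a8, a calcium-binding protein abundant in neutrophils, was at 4.71, 8.07, 2.21 and 8.2 CPM in Sham-Saline and at 1.79, 2.48, 1.95 and 0.934 CPM in SNI-DMI, which overlapped only through Sham-Saline replicate 3 (log2FC -1.70, SE 0.42). Retnlg, a secreted neutrophil protein, was at 1.13, 1.26, 0.608 and 1.33 CPM against 0.558, 0.199, 0.165 and 0.196 CPM, without overlap (log2FC -1.96). The summed neutrophil level was 15.8 to 50.6 CPM in Sham-Saline and 8.02 to 18.1 CPM in SNI-DMI. The median of the list was -0.01 in SNI-Saline over Sham-Saline, -1.50 in Sham-DMI over Sham-Saline and -1.40 in SNI-DMI over SNI-Saline. Of 10 B cell and plasma cell markers 5 fell and none rose (median -0.86, or -0.54 with only genes of at least 10 counts in every library). The median of this list over the same Sham-Saline libraries was -0.50 in SNI-Saline and -1.25 in Sham-DMI. Pax5, the B cell transcription factor, was at 0.922, 1.13, 0.545 and 0.74 CPM in Sham-Saline and at 0.261, 0.398, 0.28 and 0.332 CPM in SNI-DMI, without overlap (log2FC -1.38). Red cell markers fell in 2 of 8 cases, and their summed level was 36 to 131 CPM in Sham-Saline and 33.3 to 89.6 CPM in SNI-DMI. Their part in the lower neutrophil and B cell genes was not tested. Of 15 T and NK cell markers none rose or fell at the threshold for lists, and 1 was a DEG, higher in SNI-DMI (median log2FC 0.39).

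**Figure D4:**
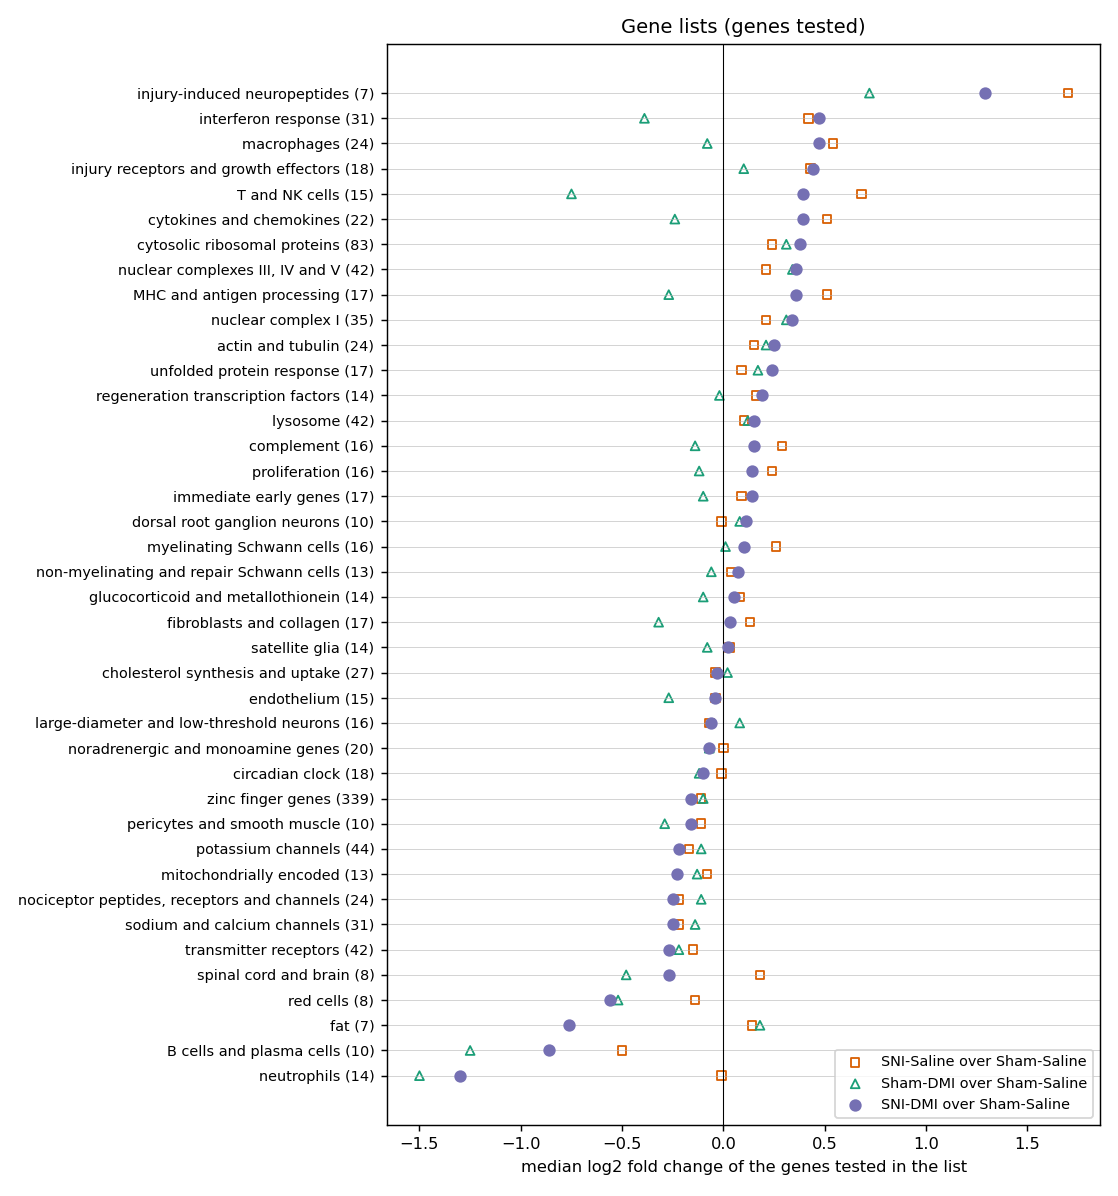
Median log2FC of the tested members of each gene list in SNI-DMI over Sham-Saline, SNI-Saline over Sham-Saline and Sham-DMI over Sham-Saline, which share the Sham-Saline libraries. Injury neuropeptides stand at 1.29 in SNI-DMI, 1.70 in SNI-Saline and 0.72 in Sham-DMI. Neutrophil markers are low in SNI-DMI (-1.30) and Sham-DMI (-1.50) and near 0 in SNI-Saline (-0.01).

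Genes of the translation and respiration machinery rose together by small amounts. Of 83 cytosolic ribosomal protein genes 78 rose and none fell (median log2FC 0.38), and the groups did not overlap for 77, against 15.3% of all genes. Of 35 nuclear genes of respiratory complex I 32 rose and none fell (median 0.34), and of 42 of complexes III to V 33 rose and 1 fell (median 0.36). These genes are short, and with the length and GC trends removed the median was 0.29 for the ribosomal list and 0.28 for complexes III to V. Ndufs7, an iron-sulfur subunit of complex I, was at 75.7, 81, 67.5 and 77.2 CPM in Sham-Saline and at 113, 113, 114 and 112 CPM in SNI-DMI. The SNI-DMI libraries were nearly identical and all above Sham-Saline (log2FC 0.58, SE 0.06, adjusted p = 3.94e-05 by edgeR's quasi-likelihood test). Of the 13 protein genes encoded in mitochondrial DNA 10 fell and none rose, with a median of -0.23, which became 0.00 with the trends removed. Among 42 lysosomal genes 26 rose and 4 fell (median 0.15), among 24 actin and tubulin genes 19 rose and none fell, among 17 genes of the unfolded protein response 13 rose and 1 fell, and among 339 zinc finger genes 24 rose and 148 fell (median -0.16, and -0.05 with the trends removed).

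The genes with the smallest adjusted p, at most 10 in each direction, held both injury genes and genes of other kinds. Those that rose were Ecel1, Nts, Cckbr, Atf3 and Sprr1a, and with smaller changes Rhoc, a small GTPase of the cytoskeleton (log2FC 0.60), Cd63, a tetraspanin of late endosomes (0.58), Mt1, a metallothionein (0.83), Ndufs7 (0.58) and Jpt1 (0.53). Mt1 was at 29.5, 36.1, 27.1 and 30.7 CPM in Sham-Saline and at 54.3, 52.7, 57.5 and 55.6 CPM in SNI-DMI, with a gap between the groups wider than the spread in either. Those that fell were Col4a3bp, a ceramide transporter (-0.45), Rasa1, a Ras GTPase-activating protein (-0.62), Dram2 (-0.59), Mctp1 (-0.65), Cul3, the scaffold of a ubiquitin ligase (-0.50), Mosmo (-0.48), Triqk (-0.53), Arl5a (-0.47), Rabgap1l (-0.54) and Ireb2, an iron-regulatory RNA-binding protein (-0.56). Cul3 was at 147, 138, 149 and 151 CPM in Sham-Saline and at 100, 102, 99 and 111 CPM in SNI-DMI. With the length and GC trends removed, Rabgap1l turned to a log2FC of 0.03, and Dram2 (-0.11) and Triqk (-0.07) lost their calls. The value with the trends removed is not given for the other falling genes named here. Whether they kept the limit on the fold is not shown.

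SNI-Saline against Sham-DMI shares no library with SNI-DMI against Sham-Saline, and in it injury points the same way while the drug points the opposite way. The library numbers run from 33 to 36 in SNI-Saline and from 17 to 20 in Sham-DMI. Library order therefore turns together with the drug, and the 2 cannot be told apart here. Of the 3818 called genes, 210 (5.5%) went the same way there at a nominal p under 0.05, 484 (12.7%) went the opposite way and 3124 did neither, against 5.47% and 8.92% of all genes tested. Among genes called higher 187 (11.2%) went the same way and 214 (12.8%) the opposite way, and among genes called lower 23 (1.07%) and 270 (12.6%) did. SNI-Saline over Sham-DMI itself leaned upwards, with 5.91% of all genes tested DEGs higher and 1.29% lower. These shares by direction are therefore not to be set against the 5.47% and 8.92%, which pool both directions. The median absolute log2FC in SNI-DMI over Sham-Saline was 0.67 for the genes with the same direction and 0.47 for those with the opposite one. Single libraries set the second count, which was 985 when Sham-DMI replicate 2 was left out, 245 when replicate 1 of that group was, and 270 when SNI-Saline replicate 3 was.

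All 8 of the injury genes compared above went the same way in these other libraries, with log2FC of SNI-Saline over Sham-DMI of 1.54 for Nts, 1.62 for Atf3, 2.77 for Sprr1a and 3.31 for Ucn. The genes that went the opposite way, ordered by adjusted p, began with Ndufs7, Ap2s1, a clathrin adaptor subunit, Sgta, Mif, a cytokine that inhibits macrophage migration, Lin37, Elob, Ckb, brain-type creatine kinase, and Selenow among those higher in SNI-DMI (log2FC 0.36 to 0.62). Among those lower it began with Cul3, Ireb2, Cadm2, a synaptic adhesion molecule (-0.77), Ppp4r3b, Ccdc50, Zfp758 (-1.25) and Vamp7, a vesicle fusion protein (-0.69). Mif was at 50.8, 57.7, 49.8 and 61.1 CPM in Sham-Saline and at 83.5, 83.3, 84.7 and 84.6 CPM in SNI-DMI, and its log2FC of SNI-Saline over Sham-DMI was -0.16. Actb, beta-actin, often used as a reference gene, was at 785, 733, 700 and 749 CPM against 1000, 937, 990 and 995 CPM (log2FC 0.40), beside 0.01 in SNI-Saline over Sham-Saline, 0.39 in SNI-DMI over SNI-Saline and -0.28 in SNI-Saline over Sham-DMI. Retnlg and S100a8 went the opposite way too, with 2.10 and 1.84, as did 11 of the 14 neutrophil markers and 12 of the 35 complex I genes.

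**Figure D5:**
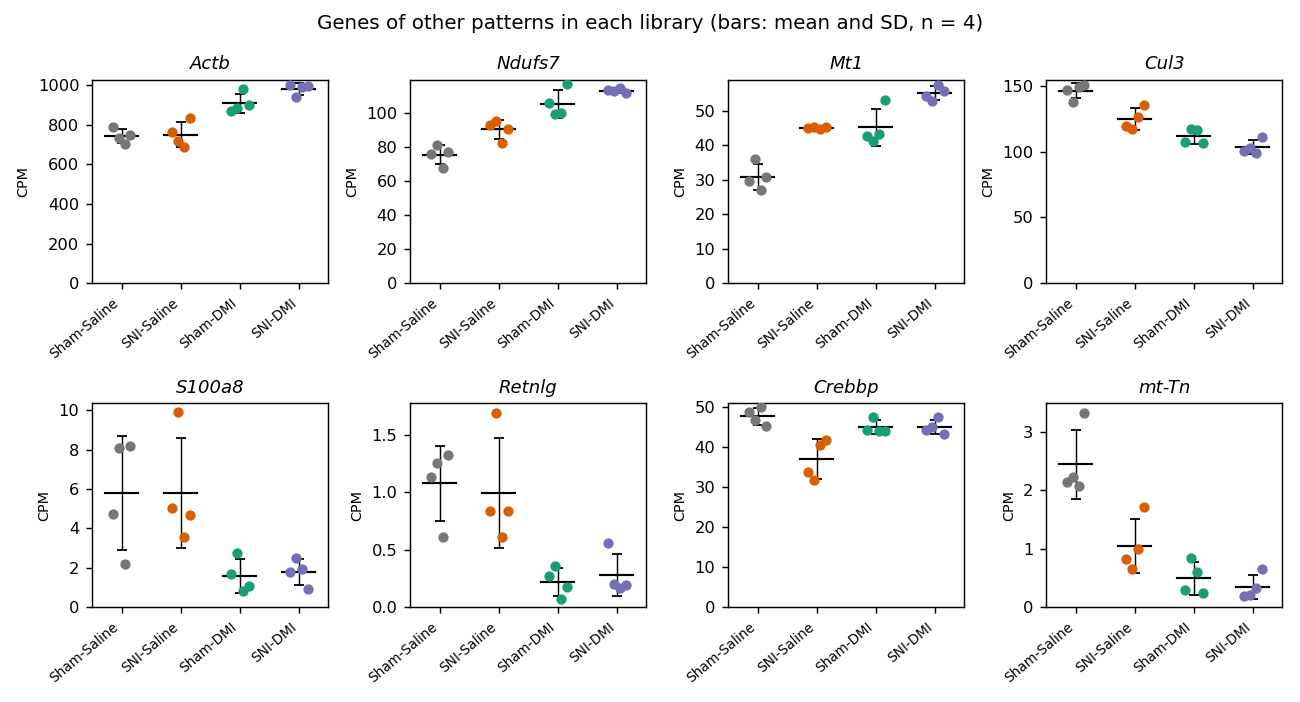
CPM from 0 of 8 genes in the 16 libraries by group, with 1 point per mouse and the mean and SD of each group. Actb, Ndufs7 and Mt1 are higher and Cul3, S100a8, Retnlg and mt-Tn lower in SNI-DMI than in Sham-Saline, while Crebbp is low in SNI-Saline and near Sham-Saline in SNI-DMI.

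Some genes that moved in SNI-Saline over Sham-Saline lay near the Sham-Saline level in SNI-DMI. A rule that took genes with an adjusted call in SNI-Saline, a nominal p under 0.05 for SNI-DMI over SNI-Saline, and neither a nominal p under 0.05 nor a log2FC of 0.16 or more in size in SNI-DMI over Sham-Saline found 15, of which 7 were raised and 8 lowered in SNI-Saline. As the rule chose them by these values, they are described without a test. Crebbp, a histone acetyltransferase and coactivator, was at 48.6, 46.6, 49.9 and 45.3 CPM in Sham-Saline, at 33.7, 31.7, 40.6 and 41.6 CPM in SNI-Saline and at 44.2, 45, 47.4 and 43.2 CPM in SNI-DMI. Its SNI-DMI values overlapped those of Sham-Saline and lay above all of SNI-Saline. Pik3c2b, a lipid kinase, Spry4, an inhibitor of growth factor signalling, Zfhx2 and Mcc were also lowered in SNI-Saline (log2FC -0.45, -0.37, -0.32 and -0.34) and stood at -0.12, -0.06, -0.14 and -0.01 in SNI-DMI. Raised in SNI-Saline were Socs3, a suppressor of cytokine signalling (0.35), Spp1, osteopontin (0.41), Rasgrf2 (0.34), Layn (0.53) and Ly9 (0.69), which stood at 0.02, 0.01, 0.11, -0.08 and -0.10 in SNI-DMI. Il6, the cytokine interleukin-6, had 33 reads in Sham-Saline, 88 in SNI-Saline and 32 in SNI-DMI, summed over 4 libraries each, and its difference between the SNI groups missed the threshold (log2FC -1.48, adjusted p = 0.11 by edgeR's quasi-likelihood test).

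Further lists held fewer called genes. Of 14 satellite glia markers 5 rose and 1 fell, with Apoe, the lipid carrier of glia, at a log2FC of 0.45, and the summed level was 3710 to 4260 CPM in SNI-DMI against 3250 to 3530 CPM in Sham-Saline, while the median log2FC was 0.02. Of 16 markers of myelinating Schwann cells 2 rose and none fell. Of 27 genes of cholesterol synthesis and uptake 7 rose and 6 fell, and of 17 immediate early genes 2 rose and none fell. Of 18 clock genes 1 rose and 2 fell, namely Clock (-0.55) and Nr1d2, a nuclear receptor of the clock (-0.45), and their summed level was 548 to 587 CPM in SNI-DMI against 613 to 666 CPM in Sham-Saline. Creld2, a chaperone induced by endoplasmic reticulum stress, rose by 0.57, and Tubb6, a tubulin of injured axons, by 0.64. The skeletal muscle list had a median of 2.16, which became -1.14 without SNI-DMI replicate 2. Myh1, a muscle myosin, was at 6.83 CPM in that library and at 0.28 CPM or less in the other 7.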

How the data were processed

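The authors sequenced stranded mRNA libraries of DRGs from 16 mice, and the deposited files hold whole-number counts of read pairs per Ensembl gene, without normalization. Per the labels, the build was mm10 and the processing notes name HISAT2, HTSeq and DESeq2, with the versions of the aligner and counter and the strand setting of the counting not given in the sources used here. Genes that overlap on opposite strands, such as Psmb9 and Tap1 or Jun and Junos, may therefore share reads. The 5 lines per file that name no gene were left out, and genes took 79.56% to 81.17% of reads. Symbols come from GENCODE M21 (GRCm38), which held 52489 of 52636 genes.

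Counts were analysed with edgeR 4.0.16 in R 4.3.3: filterByExpr on the 4 groups, TMM, and quasi-likelihood tests from 1 model of the 16 libraries, adjusted by Benjamini-Hochberg. CPM values were scaled by TMM library sizes, and the SE is the log2FC divided by the square root of F. Whole-table steps were tested on simulated counts. Averaged over genes, the counting error at this depth is small beside the spread between mice. The mean chi-square per gene between replicates within SNI-DMI and within Sham-Saline ran from 10.4 to 22.0. Genes with few reads in a pair of libraries were left out of that mean, and for them counting error can be a larger part. The coefficient of biological variation, from edgeR's common dispersion over all genes, was 0.121. Each p-value measures the spread between mice. Alternatives were DESeq2 1.42.0, other normalizations and filters, the 8 libraries alone, a replicate block, mgcv 1.9.3 trends over length and GC content removed, and each library left out.

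Genes named are protein-coding adjusted calls without overlap and with a mean of at least 1 CPM, namely the 10 with the smallest p in each direction and up to 8 in each direction that went the opposite way in SNI-Saline over Sham-DMI, up to 5 in each direction near Sham-Saline after treatment, up to 4 DEGs per list and direction, all members of short lists, the genes the study names, and Slc6a2. The Ucn promoter and the genes under other observations were added after their values were seen. The members and lists were chosen with earlier results of these data known. Some genes that the rule took are not reported here. Sequences are from RefSeq promoters of GRCm38.p6.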

Additional observations from a re-analysis of the deposited data

Results flagged for a closer look

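In 28 of 318 groups of 4 libraries over 159 genes, 1 library stood apart from the others by Dixon's criterion, where chance gives about 1 in 20 groups. None of the 8 injury genes compared between the SNI groups had such a library in SNI-DMI. In Sham-Saline, Npy was highest in replicate 2 (1.55 CPM) and Gpr151 in replicate 1 (2.19 CPM), and Gap43 was highest in replicate 2 (254 CPM).

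SNI-DMI replicate 2 was highest for the muscle genes Myh1 (6.83 CPM), Acta1 (55.9 CPM) and Cox6a2 (2.5 CPM), and lowest for Actb (937 CPM). Without it the log2FC of Myh1 was 0.80 (adjusted p = 0.477 by edgeR's quasi-likelihood test) in place of 3.99. Acta1 was also highest in Sham-Saline replicate 1 (7.96 CPM). The libraries apart in muscle genes did not include SNI-DMI replicate 4, which was highest for Klf6 (75.2 CPM), Plaur (12.4 CPM), Slc18a2 (5 CPM), Nfil3 (8.73 CPM), Dnajb9 (32.5 CPM) and mt-Tc (1.28 CPM).

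SNI-DMI replicate 3 was highest for Ndufb10 (145 CPM) and Scn9a (426 CPM) and lowest for Kcnk9 (0.165 CPM), Ccl3 (0.033 CPM) and Drd2 (3.02 CPM). SNI-DMI replicate 1 was lowest for Kcnn4 (18.2 CPM) and highest for Retnlg (0.558 CPM). Sham-Saline replicate 1 was highest for Ppp4r3b (46.1 CPM), Zfp758 (15.9 CPM), Clock (107 CPM) and Timp1 (3.13 CPM). Sham-Saline replicate 3 was lowest for Ap2s1 (147 CPM) and Slc4a1 (0.919 CPM), and Sham-Saline replicate 4 was highest for mt-Tn (3.32 CPM).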

How the results depend on the processing

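The 3818 adjusted calls and 4097 DEGs moved most with the length and GC trends removed (1917 and 2415) and without a limit on the fold (7655 and 8334). Among 1398 gene values under other settings 1355 kept their direction and their side of the threshold, and among 2544 with a library left out 2431 did. Adjusted calls ran from 3306 to 4072 with a library left out, and calls of the opposite direction in SNI-Saline over Sham-DMI from 245 to 985. The share of calls that were higher reached 53.9% without Sham-Saline replicate 1.

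With the trends removed, the log2FC turned to 0.026 for Rabgap1l, 0.022 for Crebbp, 0.168 for Mcc, 0.040 for Gabrg3 and -0.121 for Socs3, and the median of the mitochondrially encoded genes to 0.002. The cause was not tested. The list of genes the study names, which it chose on these samples, turned to a median of 0.117 with the trends removed, to 0.291 with at least 10 counts in every library, and ranged from -0.268 to 0.063 with libraries left out. With no filter on low counts Mcc was at 0.003. With a library left out, the muscle list ranged from -1.135 to 3.659, and the log2FC from -1.483 to 3.629 for Acta1, -0.019 to 0.116 for Socs3, -0.264 to 0.044 for Layn, -0.08 to 0.134 for Spp1, -0.295 to 0.11 for Ly9, -0.103 to 0.002 for Spry4, -0.06 to 0.05 for Mcc, -1.044 to 0.114 for Slc6a2 and -0.265 to 0.577 for Il6.

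With the replicate number as a block, 3815 adjusted calls and 4090 DEGs were found, 207 with the same and 467 with the opposite direction in SNI-Saline over Sham-DMI, and Spp1 turned to -0.007. It changed none of these counts by over 1.5 times. Deviations from the group means correlated between same-numbered libraries at -0.081 to 0.184. Differently numbered libraries were not set beside them, so this does not settle whether the numbers pair the mice. With 4 mice per group, intervals of about 1 log2 unit remained for the injury genes between the SNI groups.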

Other observations

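Several small mitochondrial tRNA genes were lower in SNI-DMI. They were chosen after their values were seen. The genes mt-Ta, mt-Tn, mt-Tc and mt-Ty lie next to each other on the minus strand of chrM, and mt-Tn, the tRNA for asparagine, lies at chrM:5089-5159. It was at 2.14, 2.22, 2.07 and 3.32 CPM in Sham-Saline and at 0.192, 0.214, 0.33 and 0.648 CPM in SNI-DMI. Every SNI-DMI library lay below every Sham-Saline library (log2FC -2.80, SE 0.41, adjusted p = 0.00015 by edgeR's quasi-likelihood test), and the log2FC was -2.29 with the length and GC trends removed. The log2FC was -2.38 for mt-Tc, -2.35 for mt-Ta and -1.71 for mt-Ty, against -0.04 for mt-Tp and -0.11 for mt-Tm. Over the same Sham-Saline libraries mt-Tn stood at -1.22 in SNI-Saline and -2.30 in Sham-DMI. The libraries were prepared from mRNA, and reads on tRNA genes were few.

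Further genes, also chosen after their values were seen, had the pattern of the injury genes at lower levels. Lipn, a lipase of the skin, had 10 reads over the 4 Sham-Saline libraries, 35 over those of Sham-DMI, 310 over those of SNI-Saline and 240 over those of SNI-DMI. En1, a homeobox transcription factor, had 4, 18, 114 and 156 reads in the same order, and Slc30a3, a zinc transporter of synaptic vesicles, 3, 6, 118 and 69. Sprr1b, the neighbour family member of Sprr1a, had 0 reads in Sham-Saline and Sham-DMI, 51 in SNI-Saline and 29 in SNI-DMI. Fgf3, a fibroblast growth factor, was at 0.348, 0.635, 0.53 and 0.498 CPM in Sham-Saline and at 2.06, 1.75, 1.45 and 3.53 CPM in SNI-DMI, without overlap (log2FC 2.12). Pde6b, a phosphodiesterase of photoreceptors, and Car1, a carbonic anhydrase, had log2FC of 2.30 and 2.11.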
